A study of Mus musculus with 12 samples.

Results

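Dentate granule cell identity genes are genes that mark the excitatory principal neurons of the dentate gyrus. This set held 8 of them, Prox1, Rfx3, C1ql2, C1ql3, Dsp, Calb1, Tdo2 and Lct, out of 17564 genes measured by RNA-seq in the ventral hippocampus. They were taken by gene symbol from both deposited comparisons of oral corticosterone (CORT), the main glucocorticoid of rodents, with vehicle (VEH), and all 8 were present. The mice were males on a C57BL/6 background. WT mice were compared with BDNF het-Met mice, a knock-in carrying 1 copy of the Met variant of the brain-derived neurotrophic factor gene in every cell. CORT was given at 25 mg/l in 1% ethanol for 6 weeks from 2 months of age, and VEH mice drank 1% ethanol. Each genotype was split into a VEH and a CORT group, which made 4 groups of 3 libraries, and every library pooled RNA from 2 animals.

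Granule cells receive the main cortical input to the hippocampus and send mossy fibres to CA3 pyramidal cells and to mossy cells of the hilus. They carry many glucocorticoid receptors, and they are among the few neurons still added in the adult rodent brain. Prox1 specifies and maintains their fate, and C1ql2 and C1ql3 are secreted at their mossy fibre synapses. Genes of the set are not all restricted to granule cells. Prox1 also marks a class of interneurons, Calb1 marks CA1 pyramidal cells and interneurons, and Rfx3 is used by ciliated cells.

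The deposited tables hold fitted values and no value per library, so each error below is the standard error (SE) of the authors' limma-voom model, and the number of reads counted per library is not in them (about 35 to 40 M reads were planned). In bulk tissue, fewer granule cells and less RNA per granule cell cannot be told apart. Mean expression over all libraries is given per kilobase of exon, as log2 CPM (read counts scaled to library size) per kb, so that genes can be set side by side. Calb1 was the most abundant member at 5.13, above 92.7% of genes, followed by C1ql2 at 4.93 and C1ql3 at 4.64. Prox1 at 3.62 and Rfx3 at 3.47 came next, then Dsp at 2.02, Lct at 1.66 and Tdo2 at 0.67. The median over all genes on this scale was 1.96, so Lct and Tdo2 lay below it. No spread of these levels is given by the tables, so neighbours in this order could not be tested against each other. All 13 genes of a second granule cell list (with Dock10, Trpc6, Plk5, Glis3, Igfbp5 and Pitpnm2 among them) were measured too, from 3.62 log2 CPM for Plk5 to 8.04 for Pitpnm2.

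CORT effects on the set were small and mostly upward. In BDNF het-Met mice all 8 genes had a log2 fold change above 0 (CORT minus VEH), from 0.13 for C1ql3 to 0.40 for Lct. In WT mice 7 of 8 did, from 0.0023 for C1ql2 to 0.28 for Calb1, and Lct had -0.07. Among all genes 48.9% (WT) and 48.2% (BDNF het-Met) lay above 0, and 29.8% lay above 0 in both, as 7 members did. The median of the 8 genes was 0.10 for WT and 0.24 for BDNF het-Met mice, against -0.0026 and -0.0061 over all genes. These genes were measured in the same libraries, so their shared direction does not count as 8 separate observations. The members were also chosen with earlier results of these data known, so the direction is a description and not a test.

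Few of the single genes stood clear of their error. A gene was called when its uncorrected limma p was below 0.05. By this only Calb1 was called in WT mice, where 3.83% of all genes were called and 2.25% were called as higher. Only Rfx3 was called in BDNF het-Met mice, where 13.2% of all genes were called and 6.55% as higher. By the rule for differentially expressed genes (DEGs), which adds a fold change above 1.3, no member was a DEG in either genotype, against 1.25% (WT) and 3.24% (BDNF het-Met) of all genes. After Benjamini-Hochberg adjustment of the limma p over all genes no member had an adjusted p below 0.05, and neither had any other gene in WT (0%) or BDNF het-Met mice (0%). The adjusted p of the members was 0.999 or above in WT and ran from 0.319 to 0.661 in the knock-in.

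**Figure D1:**
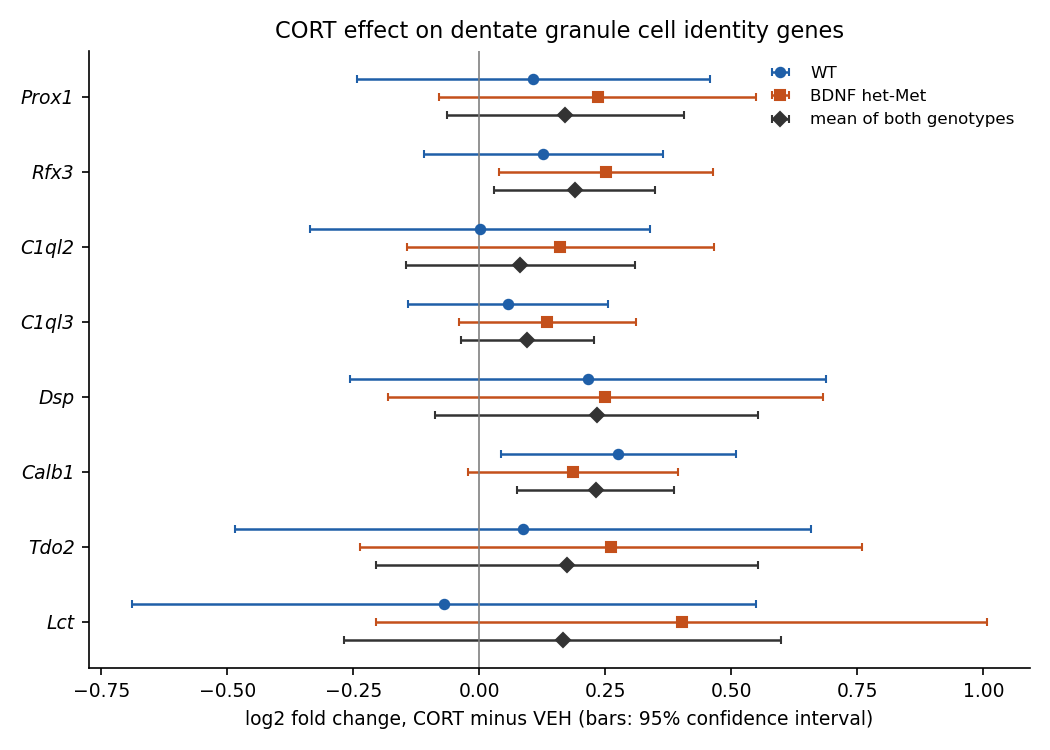
Log2 fold change (CORT minus VEH) of the 8 identity genes on the horizontal axis, with points for WT, BDNF het-Met and the mean of both genotypes and bars for the 95% confidence interval. The interval lies above 0 for Calb1 in WT (0.04 to 0.51) and for Rfx3 in BDNF het-Met mice (0.04 to 0.46), and it includes 0 for the other 7 genes in each genotype.

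The transcription factors were Prox1 and Rfx3. Prox1 (ENSMUSG00000010175, chr1:190118035-190170714, minus strand, GRCm38), a homeobox factor needed for granule cell fate, had a log2 fold change of 0.11 ± 0.16 (SE) for WT and 0.23 ± 0.14 for BDNF het-Met mice. Neither was called, and the 95% intervals ran from -0.24 to 0.46 and from -0.08 to 0.55. Rfx3 (ENSMUSG00000040929, chr19:27761721-28011166, minus strand), a winged-helix factor that drives genes of the primary cilium, had 0.13 ± 0.11 for WT and 0.25 ± 0.10 for BDNF het-Met mice (adjusted p = 0.319). The second value is a fold change of 1.19, with a 95% confidence interval of 1.03 to 1.38. It was ranked 1321 of 17564 genes by p.

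Of the 5 RFX relatives of Rfx3 in the tables (7 were listed), only Rfx4, a factor of astrocytes and neural progenitors, was called. It had -0.19 ± 0.08 in BDNF het-Met mice, the opposite direction to Rfx3. The list median was 0.09 (WT) and -0.04 (BDNF het-Met). An antisense gene, Prox1os, shares 133 exonic bases with Prox1 and had -0.04 ± 0.20 and -0.18 ± 0.17. The library kit kept strand, but no source used here says whether counting used it.

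The secreted synaptic organisers were C1ql2 and C1ql3. C1ql2 (ENSMUSG00000036907, chr1:120340582-120343174, plus strand), which recruits kainate receptors to mossy fibre synapses, had a log2 fold change of 0.0023 ± 0.15 for WT and 0.16 ± 0.14 for BDNF het-Met mice. The 95% interval in WT ran from -0.33 to 0.34, so changes in either direction up to that size are not excluded by it. C1ql3 (ENSMUSG00000049630, chr2:13003457-13011806, minus strand), its close relative and partner in the same complexes, had 0.06 ± 0.09 for WT and 0.13 ± 0.08 for BDNF het-Met mice, and neither was called. It had the smallest errors of the set, and its upper bound in BDNF het-Met mice was a fold change of 1.24. No exon stretch of 75 bases or more matched between C1ql2 and C1ql3 at 95% identity, whereas Gm37811 and Gm37824 on the opposite strand share 1547 and 80 exonic bases with C1ql3.

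Their known partners at mossy fibre synapses moved little. None of the 6 on the list, among them the receptor Adgrb3 and kainate receptor subunits, was called in a single genotype. Nrxn3, a presynaptic adhesion molecule, was called in the mean over both genotypes (0.14 ± 0.06), and the kainate receptor subunit Grik4 (0.21 ± 0.11) was not. The C1q-like relative C1ql1, the climbing fibre organiser of the cerebellum, was called as lower in both genotypes, with -0.26 ± 0.11 for WT and -0.36 ± 0.09 for BDNF het-Met mice. Cbln4, another secreted organiser, was called as higher in BDNF het-Met mice (0.32 ± 0.12). The 4 measured C1q-like relatives had medians of -0.23 and -0.06, below those of C1ql2 and C1ql3.

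Dsp and Calb1 encode a structural and a calcium-binding protein. Dsp (ENSMUSG00000054889, chr13:38151294-38198577, plus strand), the desmosomal plakin that ties intermediate filaments to the membrane, had a log2 fold change of 0.22 ± 0.21 for WT and 0.25 ± 0.20 for BDNF het-Met mice. Both values were alike in size and neither stood clear of its error. Among 7 measured desmosome and junction partners (10 were listed) none was called, and the medians were -0.0070 and 0.04. The nearest to the threshold was Pkp2, a plakophilin that binds Dsp, at 0.21 ± 0.11 in BDNF het-Met mice.

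Calb1 (ENSMUSG00000028222, chr4:15881264-15908064, plus strand), the calcium buffer calbindin of mature granule cells, had the largest ratio of effect to error among the members in the mean of both genotypes. Its log2 fold change was 0.28 ± 0.11 for WT (adjusted p = 0.999) and 0.19 ± 0.09 for BDNF het-Met mice (adjusted p = 0.428), where its 95% interval ran from -0.02 to 0.39. The WT value is a fold change of 1.21, with a 95% confidence interval of 1.03 to 1.42, and ranked 287 of all genes by p. Its relatives Calb2 and Pvalb, calcium buffers of mossy cells and interneurons, were not called (0.08 ± 0.20 and -0.01 ± 0.11 in WT, -0.19 ± 0.18 and 0.12 ± 0.10 in the knock-in).

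The enzymes were Tdo2 and Lct, the weakest members. Tdo2 (ENSMUSG00000028011, chr3:81957090-81976202, minus strand), the tryptophan dioxygenase that opens the kynurenine pathway and is induced by glucocorticoids in liver, had a log2 fold change of 0.09 ± 0.26 for WT and 0.26 ± 0.23 for BDNF het-Met mice. The intervals were wide, from -0.48 to 0.66 and from -0.24 to 0.76. Lct (ENSMUSG00000026354, chr1:128284756-128328318, minus strand), the lactase of the small intestine, had -0.07 ± 0.28 for WT and 0.40 ± 0.28 for BDNF het-Met mice. The second is the largest estimate of the set, a fold change of 1.32, and its 95% interval of 0.87 to 2.01 includes no change. Of 13 listed tryptophan and kynurenine enzymes 7 were in the tables, and 2 were called as higher in BDNF het-Met mice. They were Kyat3, a kynurenine aminotransferase (0.32 ± 0.10), and Tph1, the serotonin-forming tryptophan hydroxylase (1.36 ± 0.45, at a mean of only -1.33 log2 CPM). The other 5 were below 0 there, and the list median was -0.02. Among all genes 13.2% were called in that genotype, and 6.55% as higher.

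Averaging both genotypes, which no library enters on both sides, called 2 of the 8 genes, both higher, where 13.3% of all genes were called and 7.17% as higher. Calb1 had a mean log2 fold change of 0.23 ± 0.07 (adjusted p = 0.232) and Rfx3 of 0.19 ± 0.07 (adjusted p = 0.307). The other means ran from 0.08 for C1ql2 to 0.23 for Dsp, and none of these was called. Of all genes 13 (0.074%) had an adjusted p below 0.05 in this comparison, and none was a member. A joint F over 3 contrasts of the 4 groups gave an adjusted p = 0.605 for Calb1 and an adjusted p = 0.676 for Rfx3.

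The CORT effect was not shown to differ between genotypes for any member. The difference (BDNF het-Met minus WT) was above 0 for 7 of 8 genes, as it was for 48.8% of all genes, and Calb1 had -0.09 ± 0.14. The largest was that of Lct at 0.47 ± 0.39, with a 95% interval of -0.40 to 1.34. The smallest was that of Dsp at 0.03 ± 0.29. None was called, against 2.41% of all genes, and no gene in the tables had an adjusted p below 0.05 (0%). For C1ql3, the best measured member, the interval of -0.19 to 0.34 bounds the difference.

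**Figure D2:**
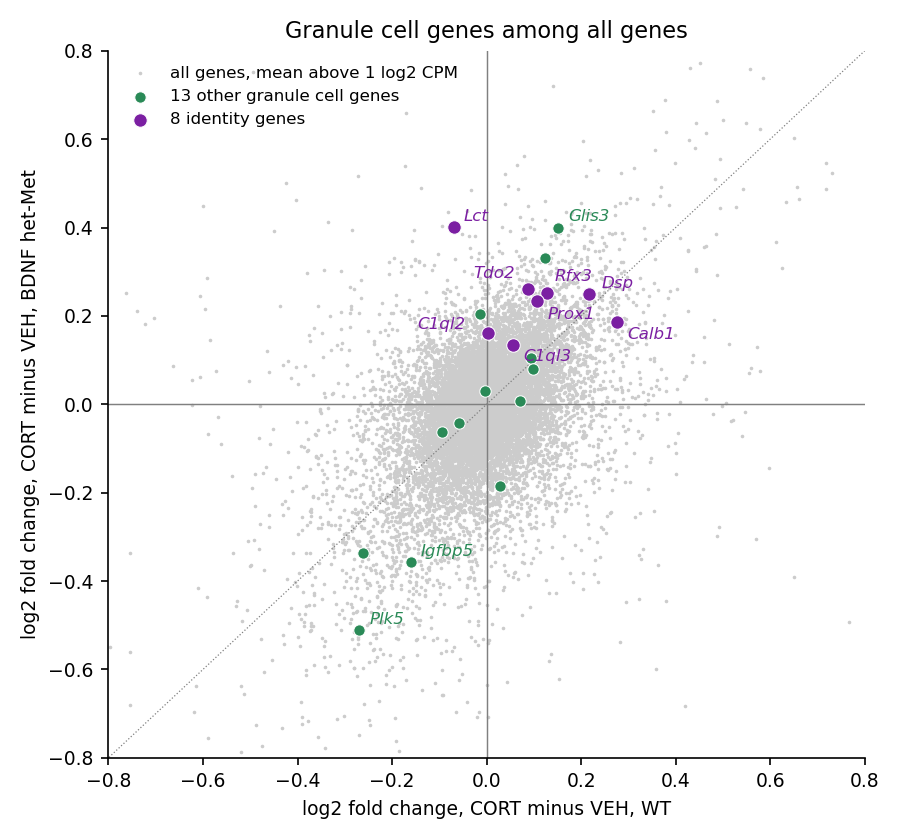
Log2 fold change (CORT minus VEH) in WT on the horizontal axis and in BDNF het-Met mice on the vertical axis for each gene, with the 8 identity genes and 13 other granule cell genes in colour and a dotted line where both are equal. The 8 genes lie above 0 on the vertical axis (0.13 to 0.40), whereas the 13 others spread from -0.51 for Plk5 to 0.40 for Glis3.

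The wider granule cell list did not share the direction. Of the 13 other granule cell genes 6 were above 0 for WT and 7 for the knock-in. Their medians were -0.0038 and 0.0064, close to those of all genes. None was called in WT. In BDNF het-Met mice Glis3, a zinc finger factor, was called as higher (0.40 ± 0.18), and Plk5, a polo-like kinase of neurons, as lower (-0.51 ± 0.12). Igfbp5, a secreted IGF-binding protein, was called as lower as well (-0.36 ± 0.12). Plk5 and Igfbp5 were also called as lower in the mean over both genotypes (-0.39 ± 0.09 and -0.26 ± 0.09).

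Genes of neighbouring cell stages and types did not move as 1 block either. Of 6 immature granule cell genes 2 were called in BDNF het-Met mice, in opposite directions. Neurod1, a factor of differentiating granule cells, was higher (0.25 ± 0.09), and Dcx, the microtubule protein of migrating neuroblasts, was lower (-0.18 ± 0.08). Of 5 mossy cell genes only Ociad2 was called (0.30 ± 0.08 in BDNF het-Met mice), while the list median there was -0.19. CA1, CA2 and CA3 pyramidal lists had medians between -0.10 and 0.01 for WT and between 0.02 and 0.08 for the knock-in. None of their genes was called in WT. In the knock-in 1 CA1 and 1 CA3 gene were called as higher, and 1 CA2 and 1 CA3 gene as lower. There 13.2% of all genes were called.

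Many glial markers had values below 0 in the same comparisons, though few were called in WT mice. All 6 microglia genes were below 0 in both genotypes, with a median of -0.22 for WT and -0.43 for BDNF het-Met mice. Of these, 5 were called in BDNF het-Met mice but 0 in WT. Among all genes the shares called were 13.2% and 3.83%, in that order. Of 6 oligodendrocyte genes 5 were below 0 in both genotypes and 3, with Mag and Cnp among them, were called in BDNF het-Met mice, where the median was -0.35. None was called in WT, and Mobp, a myelin protein, had 0.28 ± 0.29 and 0.27 ± 0.26. Of 6 astrocyte genes 5 were below 0 in BDNF het-Met mice and 3 of these were called, led by the water channel Aqp4 at -0.79 ± 0.12, while Aldh1l1, a folate enzyme, was called as higher (0.19 ± 0.07). In WT mice Aqp4 was called as lower (-0.52 ± 0.13) and Aldh1l1 as higher (0.25 ± 0.08), and no other astrocyte gene of the list was called. In the mean over both genotypes Aqp4 had -0.65 ± 0.09 (adjusted p = 0.043), which made it 1 of the 13 genes with an adjusted p below 0.05 there. For the difference between genotypes, all 6 values were below 0 in each of the microglia, oligodendrocyte and astrocyte lists, but no gene was called. A glial response that differs between genotypes was therefore not shown. CPM is a share of all reads in a library. The part of these shifts in the values of the 8 genes was not tested.

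**Figure D3:**
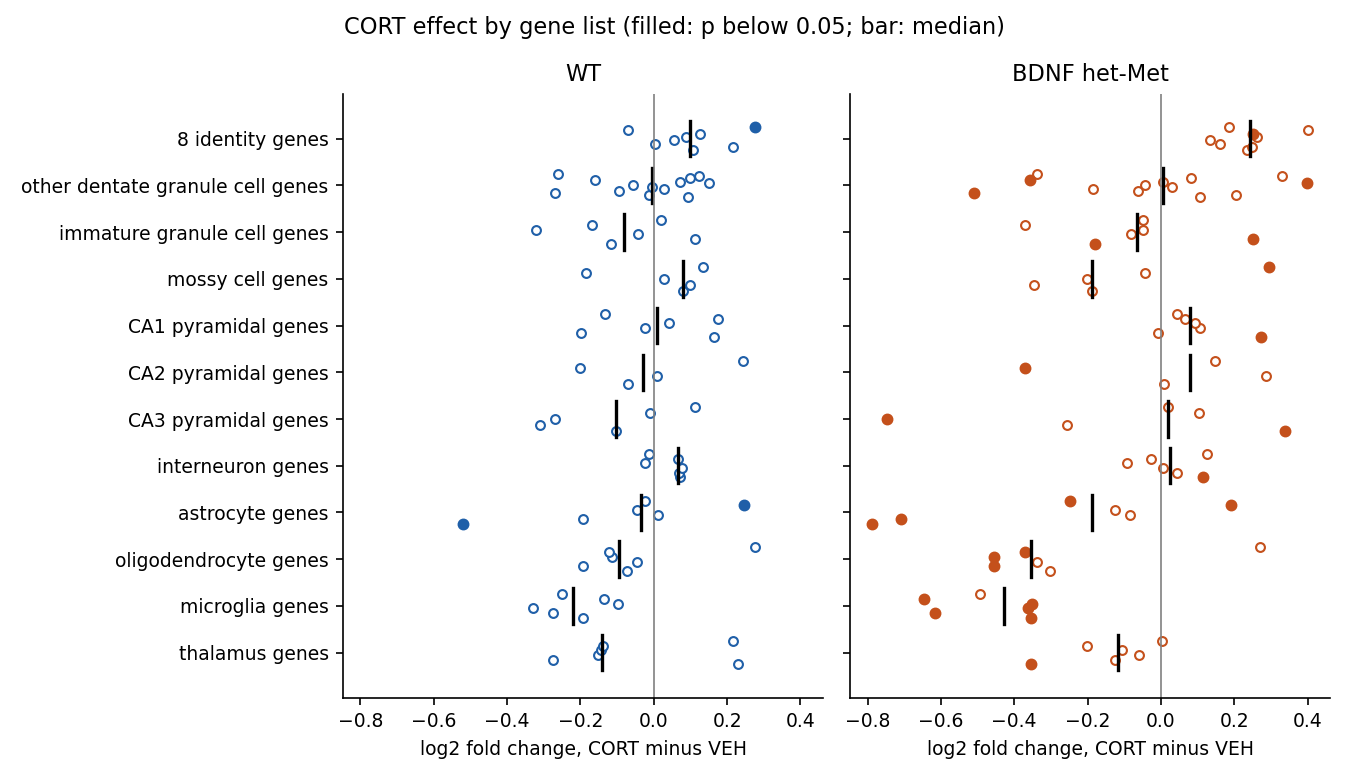
Log2 fold change (CORT minus VEH) of each gene, grouped by list, in WT (left) and BDNF het-Met mice (right), with filled points for p below 0.05 and a black bar for the list median. Among the lists plotted here, the 8 identity genes have the highest median in both panels (0.10 and 0.24), and the microglia list the lowest (-0.22 and -0.43). All lists were chosen with earlier results of these data known, so this order is not a test.

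The errors of the set were wide for its expression. The ordinary SE of the WT comparison, which reflects the scatter of a gene's libraries around their group means, was set beside the 500 genes nearest in mean log2 CPM. It exceeded 85.8% of those genes for C1ql3 and 98.2% for Dsp, with the other members in between. Against the median of those neighbours it was 1.77 times as large for C1ql3, 3.41 times for Prox1 and 4.46 times for Lct. The 13 other granule cell genes had a median percentile of 93.4, the CA1 list 99.2 and the choroid plexus list 99.8, so the width was not particular to the 8 genes. Choroid plexus genes had a median CORT effect of -1.73 in WT mice, and none was called.

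**Figure D4:**
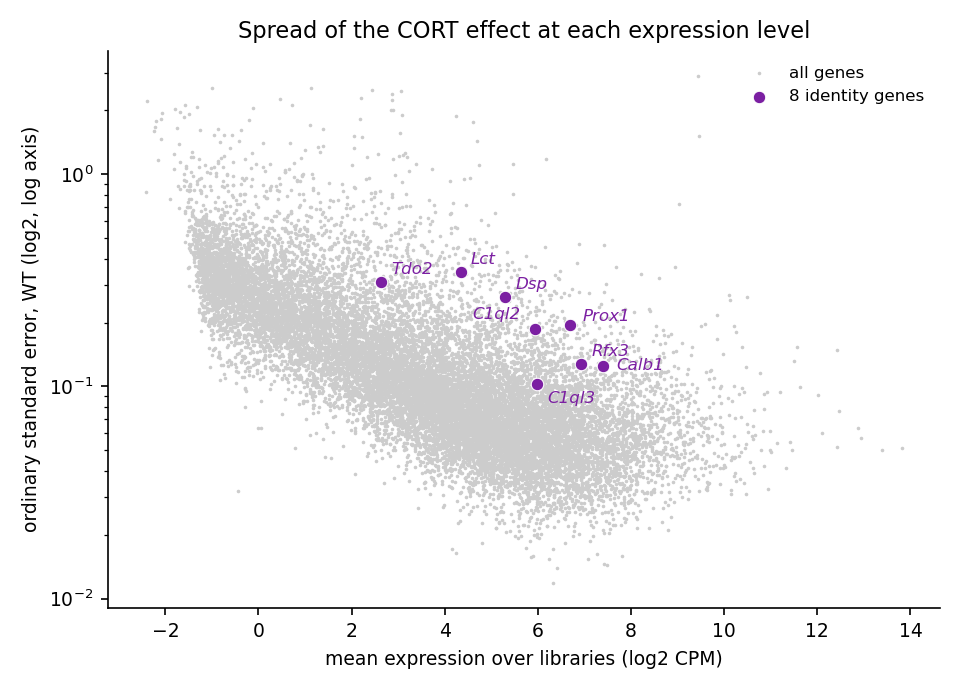
Ordinary SE of the log2 fold change in WT mice (vertical, log axis) against mean expression over all libraries in log2 CPM (horizontal) for all genes, with the 8 identity genes named. The 8 genes lie along the upper part of the cloud, at 1.77 times (C1ql3) to 4.46 times (Lct) the median SE of genes of the same level.

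The joint F also holds a part that neither CORT comparison takes up, which mainly concerns the contrast between genotypes. Computed as 3 times F minus both squared t values, it was 5.39 for Lct and 5.38 for Calb1, above 97.3% of all genes in each case. The other 6 members had values from 0.18 for Tdo2 to 1.65 for C1ql2, where the median of all genes was 0.43. It has no sign and no p, and it was below 0 for 610 genes, so it is an approximation. The joint F as a whole had an adjusted p of 0.725 for Lct and 0.605 for Calb1. A difference of Lct or Calb1 between genotypes was therefore not shown, and its direction would not be known from this value.

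Promoters were examined because the members leaned the same way under a steroid hormone. RefSeq windows on GRCm38.p6, the 250 bases before each start site, matched 7 of the 8 symbols (not Calb1) and gave 8 windows, as Prox1 has 2. The palindromic core of the glucocorticoid response element, ACANNNTGT, its half-site TGTTCT and the cAMP response element TGACGTCA were searched on both strands. They occur in 5.84%, 16.1% and 1.55% of all 32851 windows. The 1 match in the set was ACAAGCTGT in Tdo2, at -178 to -170 from the RefSeq start site. It is a match to letters and not a measured binding site. The Tdo2 window (chr3:81975729-81975978, minus strand) lies inside the annotated gene, whose 5' end is at 81976202. The match is therefore not upstream of the annotated gene. The C1ql3 window and 1 of the 2 Prox1 windows also lie inside the annotated genes. The windows differed in base composition, from 30 CG pairs in Rfx3 to 3 in Tdo2 and 1 in Lct, with a median of 6 over all windows. The windows of Rfx3 (chr19:28011167-28011416, minus strand) and Lct (chr1:128328319-128328568, minus strand), just outside the annotated genes, are shown as the richest and the poorest, with CG pairs in capitals.
Rfx3: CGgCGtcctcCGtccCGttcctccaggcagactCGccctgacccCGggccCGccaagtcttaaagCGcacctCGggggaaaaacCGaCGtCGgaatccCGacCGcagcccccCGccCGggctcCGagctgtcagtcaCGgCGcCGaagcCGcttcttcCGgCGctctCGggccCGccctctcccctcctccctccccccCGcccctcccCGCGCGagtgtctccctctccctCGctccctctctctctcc
Lct: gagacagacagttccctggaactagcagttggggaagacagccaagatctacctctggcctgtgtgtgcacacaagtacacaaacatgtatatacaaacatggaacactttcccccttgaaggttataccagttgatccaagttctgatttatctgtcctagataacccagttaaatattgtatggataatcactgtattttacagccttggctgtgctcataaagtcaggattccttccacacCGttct
The G and C content of these windows was 72.8% and 42.8%, against a median of 52.4% over all windows.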

How the data were processed

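RNA-seq libraries (stranded, 75-bp single-end reads) were aligned by the authors with STAR to mouse build mm10 (GRCm38), counted with featureCounts and fitted with limma-voom. Low-quality reads were discarded first. No source used here names tool versions, a cutoff for weakly expressed genes or normalization factors. The deposited log2 values are mean expression (log2 CPM), the log2 fold change and its ordinary SE. The deposited p-values are the uncorrected, adjusted and joint F p, and the deposited scores are the moderated t and F. These are the authors' own comparisons, used because no value per library was analysed here. The fold change, VEH minus CORT by its name, was turned, after which Fkbp5, a glucocorticoid target, was higher under CORT in both genotypes (0.21 and 0.43). Of 6 genes that the study's text names as higher under CORT, 4 were above 0 on this scale and 2 (Tnnt1 and Chn2) below it. The direction rests mainly on the names of the comparisons, and every sign here would turn with it. The SE printed is the moderated one, obtained as fold change over t.

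Recomputed p-values equalled the deposited ones. The table lists 7 residual degrees of freedom, where 12 libraries in 4 groups leave 8. The median SE over all genes was 0.102 for WT and 0.090 for BDNF het-Met mice, so the WT errors were wider. Whether a missing library or a further term in the authors' fit lies behind this was not tested. The mean and the difference of both genotypes were tested at 10.9 total degrees of freedom with errors treated as independent. Benjamini-Hochberg adjustment was over all 17564 genes (scipy 1.17.1, pandas 2.3.3). The calculation was tested on simulated data with 3 libraries per group, 1 ordinary SE shared by both genotypes and 8 degrees of freedom. That simulation did not cover the moderated errors or the degrees of freedom of the authors' fit. Annotation came from GENCODE M21 on GRCm38, with coordinates counted from 1, and 17557 identifiers matched. Transcripts were compared with blastn 2.17.0. All 8 members are described in full, and of other lists up to 3 genes of smallest p in the mean of both genotypes and those called in 1 genotype could be named. A few genes of other lists are not reported by name here. The members and lists were chosen with earlier results of these data known. Replicates are pools of separate animals. Alternatives were the ordinary SE, other thresholds and centring.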

Additional observations from a re-analysis of the deposited data

Results flagged for a closer look

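The CORT effect differed between genotypes at an uncorrected p below 0.05 for 2 (1.79%) of the 112 measured genes of the lists, against 2.41% of all genes, and neither is one of the 8 identity genes. Cbln4, a secreted synaptic organiser related to C1ql2 and C1ql3, had a difference (BDNF het-Met minus WT) of 0.53 (adjusted p = 1.00), from -0.20 ± 0.14 in WT to 0.32 ± 0.12 in BDNF het-Met mice. Tcf7l2, a Wnt pathway factor listed as a thalamus gene, had a difference of -0.58 (adjusted p = 1.00), from 0.23 ± 0.17 in WT to -0.35 ± 0.16 in BDNF het-Met mice. Both p-values were computed from the 2 limma comparisons with their errors treated as independent.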

How the results depend on the processing

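The ordinary SE at 7 degrees of freedom was also used in place of the moderated one. Of the 8 genes, 0 in WT, 0 in BDNF het-Met mice and 1 in the mean of both genotypes then had p below 0.05. Calb1 in WT mice and Rfx3 in both other comparisons lost their calls, while Calb1 kept its call in the mean. A p threshold of 0.01 also left 0, 0 and 1. Without the fold change minimum there was 1 DEG among the 8 genes for WT and 1 for BDNF het-Met mice. The shares of all genes were then 3.83% and 13.2%. With a minimum of 1.5 there were 0 and 0 among the 8 genes. For the ordinary SE, the 0.01 threshold and the 1.5 minimum the share of all genes was not computed. Whether other genes lost calls in like measure was therefore not tested. Centring on the median of all genes moved each log2 fold change by at most 0.0061, and centring by quintile of mean expression moved those of the 8 genes by -0.03 to 0.04. Neither changed a direction or a call of the 8 genes. Adjusting over genes above 1 log2 CPM alone left the smallest adjusted p at 0.206, for the mean of both genotypes. No paired analysis was possible because the tables hold no value per library, and leaving out each replicate in turn could not be run for the same reason. The labels give 3 pools per group, though the fit had 7 residual degrees of freedom rather than 8. The width of the 95% intervals sets what could be called. Errors were wider in WT (median SE over all genes 0.102) than in BDNF het-Met mice (0.090), so calls in the 2 genotypes were not equally likely.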
